A study of Mus musculus with 9 samples.

Results

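Rnd and RGK proteins are small GTP-binding proteins of unusual biochemistry, and their 7 genes were followed here in embryonic mouse forebrain with and without a full dose of *Npas3*. The members were taken by gene symbol from the deposited count table, *Rnd1*, *Rnd2* and *Rnd3* for the Rnd branch and *Gem*, *Rem1*, *Rem2* and *Rrad* for the RGK branch, which is 7 of 55401 genes in the table. All 7 had enough reads to enter the comparison of genotypes, which covered 17818 genes. The families were chosen by the HET against WT values of *Rnd1* and *Gem* in these same samples, so the differences between HET and WT embryos given for the members are a description, and nothing is supported by them.

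The forebrains came from female embryos at E16 to E17. The 5 WT embryos (labelled Npas+/+) carried both copies of *Npas3*, and the 4 heterozygous embryos (HET, labelled Npas+/-) carried a constitutive deletion of 1 copy in all cells. Both genotypes were on the C57BL/6J background, and the WT embryos were littermates of heterozygotes. Poly(A) RNA of each embryo was sequenced as 1 library, and levels are given as CPM, counts divided by the size of the library after TMM scaling, which sets libraries on a common scale. The targeted gene was at 40.8, 35.4, 29.6, 38.2 and 37.0 CPM in WT embryos 5, 15, 16, 41 and 43 and at 27.9, 28.2, 34.1 and 27.8 CPM in HET embryos 5, 6, 7 and 24. The genotypes overlapped through WT embryo 16 and HET embryo 7, and *Npas3* did not pass the test (log2 fold change of HET against WT -0.30, standard error, SE, 0.10, adjusted p = 0.877 from edgeR). These counts cover the whole gene and not the deleted stretch alone, so they check the genotypes only in part. Total counts ran from 42640218 to 62830060 per embryo. The sample labels name astrocytes as the cell type, but the libraries held bulk RNA of forebrain tissue. The forebrain genes *Lhx2* and *Emx2* were at 368 ± 79.7 and 93.1 ± 22.1 CPM in WT (SD, n = 5). The summed level of 5 Hox genes of the hindbrain was at most 0.0883 CPM. *Neurod6*, a gene of cortical excitatory neurons, was at 858 ± 148 CPM in WT (SD, n = 5). The astrocyte water channel gene *Aqp4* was at 1.48 ± 0.316 CPM in WT, with 54 to 128 reads per WT embryo. In such bulk RNA, fewer cells of a type and less RNA per cell cannot be told apart. WT embryos 15, 16 and 41 and HET embryo 24 stood apart by RNA of the choroid plexus, the epithelium that makes cerebrospinal fluid, with 466 to 2629 CPM of its marker *Ttr* against 0.769 to 11.7 CPM in the other 5 embryos. Results are therefore also given without these 4 libraries.

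Most small GTPases switch between a GTP-bound active form and a GDP-bound inactive form by hydrolysing GTP. Rnd proteins, relatives of RhoA, bind GTP but do not hydrolyse it, so their activity is set largely by how much of the protein a cell makes. They oppose RhoA, in part through p190 RhoGAP and by binding plexins, the receptors for semaphorins, and thereby loosen the actin cytoskeleton. In the developing cortex *Rnd2* and *Rnd3* are needed for migration of newborn neurons, and *Rnd2* is a target of the proneural factor Neurog2, while Rnd1 has been linked to axon and dendrite growth. RGK proteins, named after Rad, Gem and Kir and with Rem and Rem2 as further members, belong to the Ras superfamily. They bind the beta subunits of voltage-gated calcium channels and reduce calcium currents, and Gem also restrains the ROCK kinases. Several RGK genes are induced by growth factors, hormones or neuronal activity.

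The coding sequences show the divergence that defines the 2 branches. The stretches below are read 5′ to 3′ along the coding strand of GENCODE M21 transcripts on GRCm38. The P-loop, which wraps the phosphates of the nucleotide, is kept in all 7 members. It is shown because GTP binding is what the branches share, and capitals mark its 8 codons.
*Rnd1* (chr15:98677260-98677301, minus strand): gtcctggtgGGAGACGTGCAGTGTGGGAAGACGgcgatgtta
*Rnd2* (chr11:101468368-101468409, plus strand): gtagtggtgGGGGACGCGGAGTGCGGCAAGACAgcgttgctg
*Rnd3* (chr2:51148755-51148796, minus strand): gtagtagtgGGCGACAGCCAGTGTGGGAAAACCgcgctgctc
*Gem* (chr4:11706145-11706186, plus strand): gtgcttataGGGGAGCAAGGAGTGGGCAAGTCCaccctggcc
*Rem1* (chr2:152628345-152628386, plus strand): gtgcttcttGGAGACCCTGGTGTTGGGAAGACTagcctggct
*Rem2* (chr14:54477722-54477763, plus strand): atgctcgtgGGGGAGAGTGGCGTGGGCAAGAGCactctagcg
*Rrad* (chr8:104630593-104630634, minus strand): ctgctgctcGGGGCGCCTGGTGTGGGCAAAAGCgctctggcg
The next stretch covers the G3 motif, where RhoA and Ras carry the glutamine that helps to hydrolyse GTP. It is shown for *Rhoa*, the best known relative of the Rnd genes, and for the 4 members that carry the contrast, and capitals mark the 5 codons that aligned with the motif of *Rhoa*.
*Rhoa*: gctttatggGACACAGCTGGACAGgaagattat
*Rnd1*: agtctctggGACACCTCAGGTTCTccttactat
*Rnd3*: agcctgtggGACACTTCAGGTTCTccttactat
*Gem*: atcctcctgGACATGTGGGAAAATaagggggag
*Rem2*: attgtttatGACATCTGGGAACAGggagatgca
The glutamine codon at the end of the motif in *Rhoa* was matched by a glutamine codon in 0 of the 3 Rnd genes and in 2 of the 4 RGK genes, *Rem2* and *Rrad*. The third codon of the motif was TCA in all 3 Rnd genes and TGG in all 4 RGK genes. The ends of the coding sequences also differ between the branches. They are shown for *Rnd1* and *Gem*, the members whose values drew the families, with the last 4 codons before the stop in capitals.
*Rnd1* (chr15:98670597-98670623, minus strand): aaggccaaaagcTGTTCCATCATGtga
*Gem* (chr4:11713727-11713753, plus strand): tcctgccatgacCTGTCTGTGCTCtag
The first of these 4 codons, at the place of the lipid anchor in RhoA and Ras proteins, encoded cysteine in 3 of 3 Rnd genes and in 0 of 4 RGK genes. Over aligned codons, the Rnd genes shared 60.0% to 66.2% of bases with one another and the RGK genes 55.2% to 63.0%, whereas pairs across the branches shared 33.3% to 38.3%. *Rnd1* and *Gem* shared 35.3%, inside the range of the cross-branch pairs.

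Levels of different genes were compared per length of exon, as RPKM, the CPM divided by exon length in kilobases. In WT forebrain the order was *Rnd2*, *Rnd3*, *Rem2*, *Rnd1*, *Gem*, *Rrad* and *Rem1*, spanning from 80.2 ± 16.0 RPKM for *Rnd2* to 0.153 ± 0.0354 RPKM for *Rem1* (SD, n = 5). *Rnd3* followed *Rnd2* at 27.9 ± 7.87 RPKM, and the ranges of the 2 genes over the WT embryos did not overlap. *Rem2* at 5.23 ± 1.51 RPKM, *Rnd1* at 4.23 ± 0.507 RPKM and *Gem* at 4.12 ± 0.852 RPKM (SD, n = 5 each) had overlapping ranges as neighbours in the order and did not differ beyond their spread. *Rrad* was far below them at 0.371 ± 0.167 RPKM. Between *Rrad* and *Rem1* the ranges did not overlap with the length of all exons but did with that of the longest transcript. In HET forebrain the order was the same, but the ranges of *Rem2*, *Rnd1* and *Gem* no longer overlapped, with *Rem2* at 5.80 ± 0.875 RPKM, *Rnd1* at 1.54 ± 0.161 RPKM and *Gem* at 0.910 ± 0.143 RPKM (SD, n = 4).

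**Figure D1:**
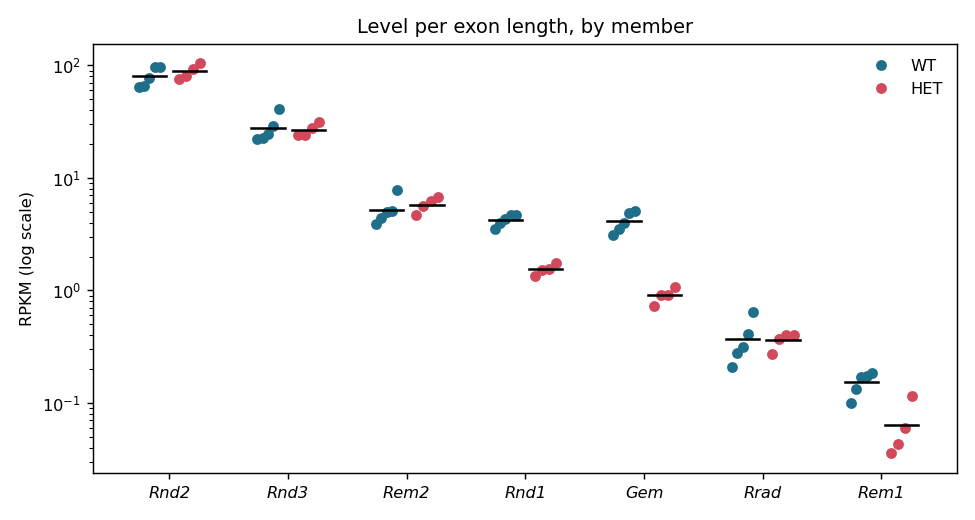
Level of each member per length of exon, in RPKM on a log axis, with a point for each embryo and a line at the mean of 5 WT and 4 HET embryos. *Rem2*, *Rnd1* and *Gem* lie together in WT, between 3.13 and 7.81 RPKM, and apart in HET, where *Gem* is at 0.730 to 1.08 RPKM.

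*Rnd1* (ENSMUSG00000054855, chr15:98663421-98677461, minus strand) was at 13.9, 10.4, 13.9, 11.8 and 12.8 CPM in WT embryos 5, 15, 16, 41 and 43. It was at 4.48, 4.003, 5.16 and 4.64 CPM in HET embryos 5, 6, 7 and 24. Every HET embryo lay below every WT embryo, and the lowest WT embryo was 2.01 times the highest HET embryo. Its WT mean was 12.6 ± 1.503 CPM (SD, n = 5) and its HET mean 4.57 ± 0.479 CPM (SD, n = 4), or 36.4% of WT, a log2 fold change of -1.46 (SE 0.12). These levels rest on 172 to 752 reads per embryo. The fall of *Rnd1* had an adjusted p of 0.00027 in the edgeR quasi-likelihood test over all 17818 genes, one of the values that drew attention to the families.

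*Rnd2* (ENSMUSG00000001313, chr11:101464999-101471853, plus strand), which acts in the multipolar stage of neuronal migration, was the member with most reads. Its level was 194, 128, 191, 132 and 153 CPM in WT embryos 5, 15, 16, 41 and 43 and 207, 186, 152 and 159.6 CPM in HET embryos 5, 6, 7 and 24. The genotypes overlapped widely, with a log2 fold change of 0.14 (SE 0.14, adjusted p = 0.913 from edgeR). Exons of *Vat1* on the opposite strand cover 11.4% of its exon bases, and since the authors' strand setting is not given, reads of the 2 genes in that stretch cannot be told apart. *Rnd3* (ENSMUSG00000017144, chr2:51130438-51149111, minus strand), also called RhoE, was at 182, 109.5, 100.2, 129 and 97.8 CPM in the same WT embryos and at 106, 139, 124 and 107 CPM in the HET embryos. WT embryo 5 was the highest of all 9, and the HET embryos lay inside the WT range. The log2 fold change of *Rnd3* was -0.06 (SE 0.17, adjusted p = 0.968 from edgeR). Of the 3 Rnd genes, 1 passed the test.

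*Gem* (ENSMUSG00000028214, chr4:11704457-11714752, plus strand) was at 10.3, 6.59, 10.7, 7.45 and 8.32 CPM in WT embryos 5, 15, 16, 41 and 43. In HET embryos 5, 6, 7 and 24 it was at 2.27, 1.93, 1.92 and 1.54 CPM. The genotypes were again apart, and the lowest WT embryo was 2.90 times the highest HET embryo. The WT mean of *Gem* was 8.68 ± 1.79 CPM (SD, n = 5) and its HET mean 1.91 ± 0.301 CPM (SD, n = 4), or 22.1% of WT, with 80 to 493 reads per embryo. The log2 fold change was -2.18 (SE 0.18), and the adjusted p of 0.00027 in the edgeR test was the other value that led to the choice of the families. *Gem* and *Rnd1* had the 8th and 9th lowest p-values of all genes.

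*Rem1* (ENSMUSG00000000359, chr2:152626951-152635198, plus strand), known mainly from heart and vessels, had the fewest reads, 4 to 24 reads per embryo. It was at 0.216, 0.398, 0.370, 0.378 and 0.287 CPM in WT embryos 5, 15, 16, 41 and 43 and at 0.130, 0.0931, 0.248 and 0.0768 CPM in HET embryos 5, 6, 7 and 24. HET embryo 7 lay above WT embryo 5, so the groups overlapped, and the log2 fold change of -1.26 (SE 0.36) had an adjusted p of 0.615 in edgeR. The 3 WT embryos with high *Ttr* were the highest for *Rem1*, and among the 5 embryos with low *Ttr* its log2 fold change was -0.66.
*Rem2* (ENSMUSG00000022176, chr14:54476100-54480431, plus strand), the RGK member tied to neuronal activity and synapse formation, was at 17.6, 11.4, 9.96, 11.2 and 8.76 CPM in the WT embryos in the same order and at 10.5, 13.96, 15.1 and 12.6 CPM in the HET embryos. The HET embryos lay within the WT range, with a log2 fold change of 0.15 (SE 0.19, adjusted p = 0.933 from edgeR). *Rrad* (ENSMUSG00000031880, chr8:104628070-104631327, minus strand), the founding member, studied mostly in muscle and heart, had 15 to 42 reads per embryo. It was at 1.01, 0.641, 0.500, 0.441 and 0.331 CPM in the WT embryos and at 0.433, 0.628, 0.578 and 0.633 CPM in the HET embryos, and its log2 fold change was -0.03 (SE 0.30, adjusted p = 0.992 from edgeR). Exons of *Gm33023* on the opposite strand cover 8.94% of its exon bases. As with *Rem2*, WT embryo 5 was the highest of the 9 embryos and HET embryos lay within the WT range.

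**Figure D2:**
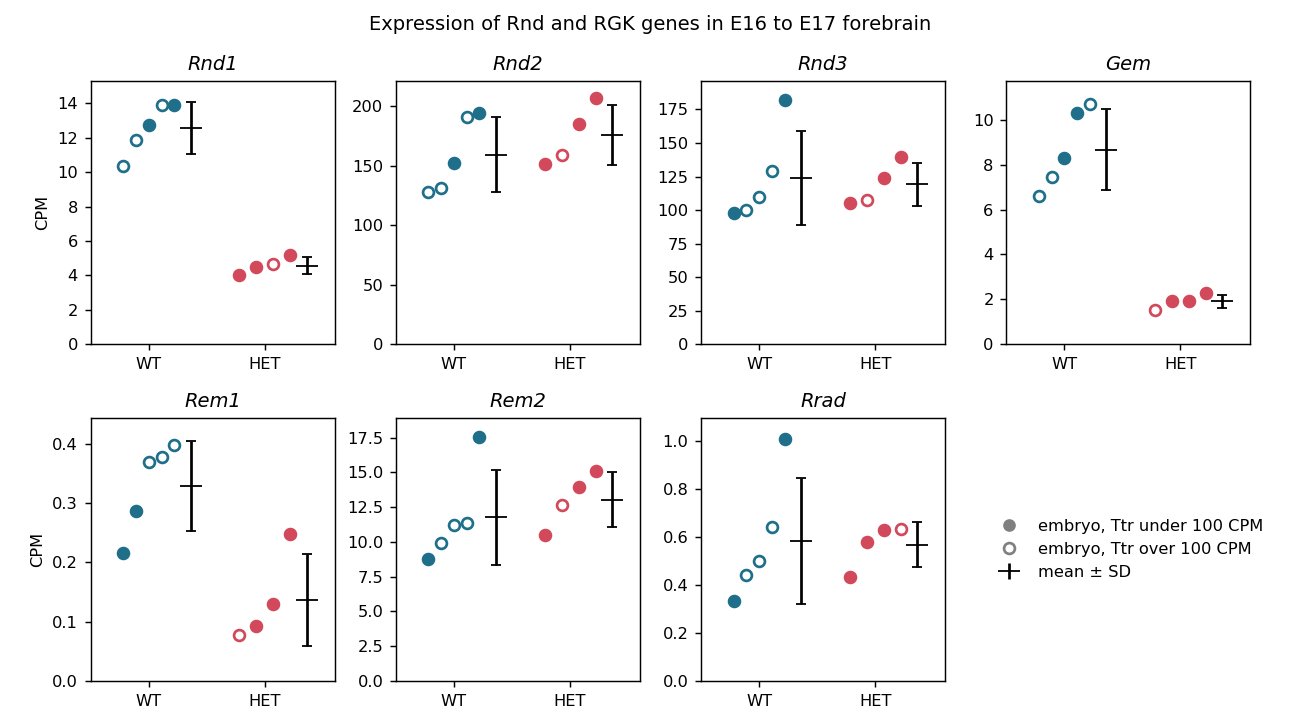
CPM of the 7 members by genotype, with a point for each embryo, open where *Ttr* was over 100 CPM, and the mean ± SD of 5 WT and 4 HET embryos in black. For *Rnd1* the HET embryos sit at 4.003 to 5.16 CPM under WT embryos at 10.4 to 13.9 CPM, for *Gem* at 1.54 to 2.27 CPM under 6.59 to 10.7 CPM, and in the other 5 panels the genotypes overlap.

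At an adjusted p under 0.05 in edgeR, 2 of the 7 members were lower in HET and 0 were higher, beside 0.112% of all tested genes called lower, 0.0281% called higher and 0.14% in either direction. The groups did not overlap for the same 2 members, both lower in HET, beside 1.07% of all tested genes lower, 0.786% higher and 1.85% either way. An unadjusted p under 0.05 was found for 3 members, with *Rem1* as the other one, beside 5.42% of all tested genes. Since this contrast chose the families, nothing is read from these shares. Among the members not called, *Rnd2*, *Rnd3*, *Rem2* and *Rrad* had log2 fold changes between -0.06 and 0.15. *Rem1*, with few reads, had one of -1.26.

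*Rnd1* and *Gem* were also read beside the targeted gene. HET embryo 7, with the most *Npas3* of the HET embryos, also had the most *Rnd1* of them, at 5.16 CPM. Its *Gem* was at 1.92 CPM, within the HET range of 1.54 to 2.27 CPM. WT embryo 16, with the least *Npas3* of the WT embryos, had 13.9 CPM of *Rnd1* and 10.7 CPM of *Gem*, the most *Gem* of the WT embryos. A relation to the level of *Npas3* within a genotype was not tested.

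RNA of other cell types was unequal between the groups in part. The summed level of 8 choroid plexus genes was 18.9 to 2931 CPM in WT and 28.8 to 540.1 CPM in HET, and all 8 had log2 fold changes below 0 although 0 passed the test. Endothelial genes (8 of 8 measured) summed to 119.5 to 177 CPM in WT and 116 to 127 CPM in HET, mural cell genes (6 of 6) to 119.7 to 157 and 127 to 134 CPM, and genes of meningeal fibroblasts (8 of 8) to 13.1 to 42.3 and 20.6 to 23.0 CPM. Microglial genes (7 of 7) summed to 47.8 to 59.3 CPM in WT and 50.5 to 60.6 CPM in HET, and in these 5 lists no gene was at 0 in all embryos or past the threshold. The endothelial and meningeal sums were highest in WT embryos 15, 16 and 41, those with high *Ttr*. WT embryos 5 and 43, with low *Ttr* and with 16.6 and 13.1 CPM of meningeal genes, below every HET embryo, had *Rnd1* at 13.9 and 12.8 CPM and *Gem* at 10.3 and 8.32 CPM.
In a fit of the 5 embryos with low *Ttr* (2 WT, 3 HET), *Rnd1* had a log2 fold change of -1.55 (adjusted p = 0.0327 from edgeR) and *Gem* one of -2.19 (adjusted p = 0.0145 from edgeR). With the mean level of the choroid plexus genes as a covariate it was -1.49 for *Rnd1* and -2.28 for *Gem*. With all embryos and no covariate the values were -1.46 for *Rnd1* and -2.18 for *Gem*. The libraries rich in choroid plexus RNA were WT embryos 15, 16 and 41 and HET embryo 24, so the covariate was partly tied to genotype. The part of choroid plexus or meningeal RNA in the differences of *Rnd1* and *Gem* was not tested.

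**Figure D3:**
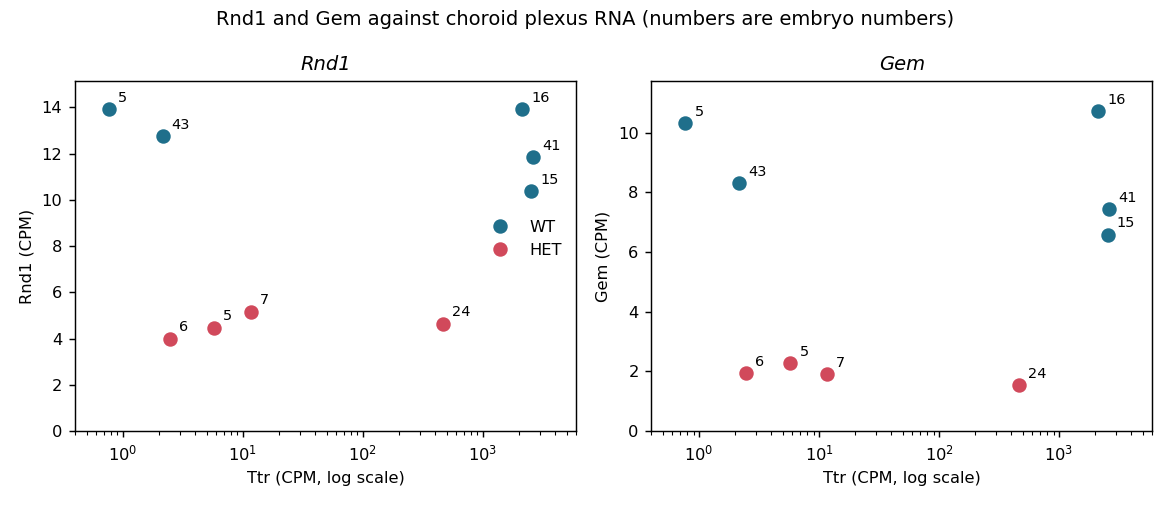
CPM of *Rnd1* and *Gem* against CPM of *Ttr* on a log axis, with a point and number for each embryo. The 2 WT embryos with low *Ttr* have 12.8 to 13.9 CPM of *Rnd1* and 8.32 to 10.3 CPM of *Gem*, above all HET embryos at either end of the axis.

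Neural cell types were examined in the same way. Of 9 genes of radial glia and astrocytes, 8 were tested and 0 passed. The list does not hold every glial gene. *Slc25a18* and *Klf15*, which the paper kept as genes expressed mainly by astrocytes, lie outside it. Both were called lower in HET by edgeR, with log2 fold changes of -1.63 and -0.72. *Acss1*, kept by the paper on the same ground, was not among the called genes. *Aqp4* was at 1.48 ± 0.316 CPM in WT (SD, n = 5) and 0.474 ± 0.414 CPM in HET (SD, n = 4), with no overlap of the groups and an adjusted p of 0.555 in edgeR. *Aldh1l1*, a folate enzyme gene that marks astrocytes, was at 24.8, 22.4, 16.3, 31.7 and 15.2 CPM in WT embryos 5, 15, 16, 41 and 43 and at 2.79, 8.68, 18.5 and 9.61 CPM in HET embryos 5, 6, 7 and 24. HET embryo 7 lay within the WT range, and *Aldh1l1* had a log2 fold change of -1.16 (SE 0.42, unadjusted p = 0.0183, adjusted p = 0.904 from edgeR), on the same side as *Rnd1* and *Gem*. In that embryo, the highest of the HET embryos for both *Aldh1l1* and *Aqp4*, *Rnd1* was also at its HET maximum, 5.16 CPM. *Gem* was at 1.92 CPM there. The astrocyte filament gene *Gfap* was at 8.58 ± 2.64 CPM in WT and 9.06 ± 2.33 CPM in HET (adjusted p = 0.969). *Tnc*, with the highest CPM of the list and made by radial glia, was at 351 ± 54.8 and 431 ± 29.2 CPM (adjusted p = 0.908). The summed level of the list, most of it from *Tnc* and *Slc1a3*, was 725 to 854 CPM in WT and 776 to 908 CPM in HET. Sums for excitatory neurons were 1698 to 2175 CPM in WT and 1664 to 1864 CPM in HET, for inhibitory neurons 216 to 457 and 169 to 431 CPM, and for intermediate progenitors 476 to 741 and 505 to 756 CPM. Blood cell genes summed to 219 to 566 CPM in WT and 378 to 444 CPM in HET. Over all marker lists, 13 genes had an unadjusted p under 0.05 in edgeR, 6 of choroid plexus, 3 of endothelium, 3 of glia and 1 of meninges, and 0 were called by edgeR, DESeq2 or limma-voom. The part of these cell types in the differences of *Rnd1* and *Gem* was not tested.

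None of the genes for proteins that Rnd GTPases act through or oppose passed the test. Of 19 genes for plexins, p190 RhoGAPs, RhoA to RhoC, ROCK kinases and other reported partners, 19 were tested, 0 were called in either direction, and their median log2 fold change was 0.04, beside -0.005 for all tested genes. The receptor gene *Plxna2*, with the highest CPM of the list, was at 607 ± 107 CPM in WT (SD, n = 5) and 616 ± 44.4 CPM in HET (SD, n = 4), with a log2 fold change of 0.02 (SE 0.12). *Ubxn11*, which encodes the Rnd-binding protein socius, had the lowest p of the list, at 9.26 ± 2.82 CPM in WT and 7.43 ± 1.12 CPM in HET (log2 fold change -0.32, SE 0.22, adjusted p = 0.911 from edgeR). *Zbtb18*, which encodes a repressor of *Rnd2*, was at 1288 ± 153 CPM in WT and 1206 ± 94.2 CPM in HET, with a log2 fold change of -0.09 that did not pass the test.

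Of 21 genes for partners of RGK proteins, which were calcium channel subunits, calmodulins, 14-3-3 proteins, *Gmip* and *Kif9*, 21 were tested and 0 were called. Their median log2 fold change was 0.09, with 16 values above 0 and 5 below. *Cacnb3*, a beta subunit to which RGK proteins bind, had the lowest p of the list, at 148 ± 8.28 CPM in WT (SD, n = 5) and 166 ± 21.9 CPM in HET (SD, n = 4), a log2 fold change of 0.17 (SE 0.09, adjusted p = 0.911 from edgeR). The pore subunit genes *Cacna1a*, *Cacna1b*, *Cacna1c*, *Cacna1d* and *Cacna1e* had log2 fold changes of 0.29, 0.24, 0.26, 0.25 and 0.27, with SE of 0.14 to 0.15, and none passed. WT embryo 16 was the lowest of all embryos for each of these genes. For *Cacna1e* it was at 125 CPM, against 187 to 231 CPM in the other WT embryos. The part of that embryo in these fold changes was not tested. *Ywhae*, a 14-3-3 gene, had the highest CPM of the partners at 1404 ± 83.2 CPM in WT and 1389 ± 34.1 CPM in HET (log2 fold change -0.02).

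Other small GTPases were followed in the same contrast. Since *Rnd1* and *Gem* were picked by their values in it, their distance from these relatives is a description. Of 18 other genes of the RhoA, Rac and Cdc42 family, which include *Rhoa*, *Rhob* and *Rhoc* of the Rnd partners, all were tested and 0 were called, with a median log2 fold change of 0.04 and none beyond 0.24 in size. *Cdc42*, with the highest CPM of them, was at 517 ± 26.0 CPM in WT and 514 ± 10.3 CPM in HET. *Rhobtb2*, an atypical member with the lowest p of this list, was at 59.6 ± 7.33 CPM in WT and 70.3 ± 1.57 CPM in HET (log2 fold change 0.24, SE 0.09, adjusted p = 0.907 from edgeR). Of 30 Ras-like genes, 28 were tested and 0 were called, with a median of 0.09 and none beyond 0.53. Of the Ras-like genes, *Hras* had the lowest p, at 49.05 ± 3.88 and 53.7 ± 1.94 CPM (adjusted p = 0.911), and *Nras* the highest CPM, at 196 ± 3.61 and 189.5 ± 10.9 CPM.
Immediate early genes, which neurons and glia switch on within minutes of a stimulus, were followed because several RGK genes share that behaviour. Of 18 such genes, 16 were tested and 0 were called, with a median log2 fold change of 0.03. *Nr4a3*, with both the highest CPM and the lowest p, was at 165 ± 12.4 CPM in WT (SD, n = 5) and 205 ± 11.8 CPM in HET (SD, n = 4), a log2 fold change of 0.32 (SE 0.07) with an adjusted p of 0.228 in edgeR and 0.00438 in DESeq2. Its groups did not overlap, and HET was the higher one, opposite in direction to *Gem*. The summed level of the list was 520.4 to 651 CPM in WT and 582 to 654 CPM in HET. Over these 5 lists, *Rhobtb2* and *Nr4a3* had an unadjusted p under 0.05 in edgeR, and 1 gene, *Nr4a3*, was called by DESeq2 and 0 by limma-voom.

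**Figure D4:**
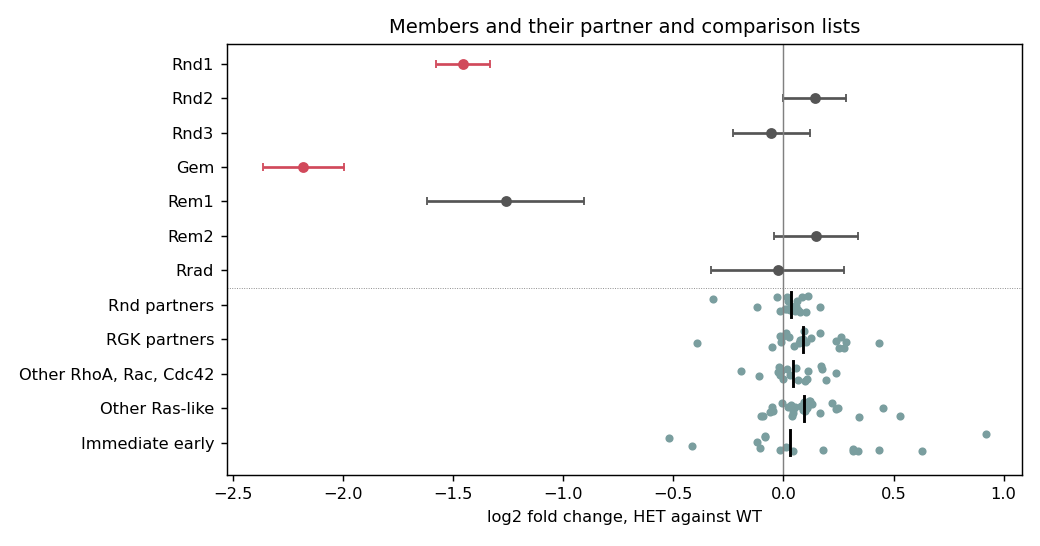
Log2 fold change of HET against WT for the 7 members (points with standard error, red where the adjusted p was under 0.05) and for the tested genes of 5 lists (a point per gene, with the list's median as a black line). *Rnd1* at -1.46 and *Gem* at -2.18, whose values in this contrast chose the families, lie below every gene of the lists. The lowest gene of the lists is *Atf3*, an immediate early gene, at -0.52.

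The genes whose levels followed *Rnd1* most closely over the 9 embryos, by Pearson's r of log2 CPM, were *Vit* (0.98), *Mt1* (0.98), *P2rx7* (0.98), *Mt2* (0.97) and *Amz1* (0.97). For *Gem* they were *Mt1* (0.99), *Maged1* (0.99), *Alpl* (0.98), *Mt2* (0.98) and *Klf15* (0.97). All of these but *Maged1* were among the 25 genes called between the genotypes, so the values of r include the step between WT and HET, and the points share their libraries. *Vit*, which encodes the matrix protein vitrin, was at 24.98 to 30.9 CPM in WT and 2.86 to 4.03 CPM in HET. *Mt1*, a metallothionein gene of zinc and copper binding, was at 11.6 to 18.2 CPM in WT and 2.48 to 3.77 CPM in HET, and *P2rx7*, an ATP-gated channel gene, at 2.96 to 4.23 and 0.978 to 1.17 CPM. Counts of *Mt2* are uncertain, because exons of *Gm45774* on the opposite strand cover 73.5% of its exon bases. *Maged1* was at 969 to 1069 CPM in WT and 803 to 875 CPM in HET, with a log2 fold change of only -0.28 (adjusted p = 0.216 from edgeR). When log2 CPM were centred within each genotype, 0 of the 5 genes remained among the 5 most like *Rnd1* and 0 of the 5 among those most like *Gem*.

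Among the members themselves, *Rnd1* and *Gem* had an r of 0.98 over the 9 embryos, which fell to 0.60 once each genotype was centred on its own mean. Inside the genotypes the closest pairs were others. *Rem2* and *Rnd3* had a centred r of 0.92, *Rem2* and *Rrad* of 0.90 and *Rnd2* and *Gem* of 0.91, across 9 embryos that share libraries and are few. WT embryo 5, highest for *Rnd3*, *Rem2* and *Rrad*, was left out in a second calculation. The centred r was then 0.75 for *Rem2* and *Rnd3*, 0.74 for *Rem2* and *Rrad* and 0.34 for *Rnd3* and *Rrad*, and it was 0.89 for *Rnd2* and *Gem*. WT embryo 5 also had the highest summed level of immediate early genes among the WT embryos, at 651 CPM against 520.4 to 569.6 CPM in the other 4, and the highest sum of inhibitory neuron genes, at 457 CPM. Its sums for intermediate progenitor, forebrain and mural cell genes, at 741, 1151 and 157 CPM, were the highest of the WT embryos as well. Whether these sums have a part in the levels of *Rem2*, *Rnd3* and *Rrad* in that embryo was not tested.

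Each embryo was also left out in turn. These fits reuse the values that chose the families, so they too are a description. Over the 9 fits that each left out an embryo, the log2 fold change ran from -1.52 to -1.39 for *Rnd1* and from -2.27 to -2.08 for *Gem*, and both stayed past the threshold, with adjusted p-values of at most 0.00332 and 0.00359 in edgeR. For *Rnd2* the log2 fold change ran from 0.05 to 0.22 and for *Rem2* from 0.06 to 0.34, with none past the threshold. *Rem1*, with 4 to 24 reads per embryo, ran from -1.71 to -1.05, also with none past the threshold. *Rnd3* and *Rrad* changed sign when WT embryo 5 was left out, to 0.13 and 0.25, and *Rrad* also without WT embryo 15 or HET embryo 5.

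**Figure D5:**
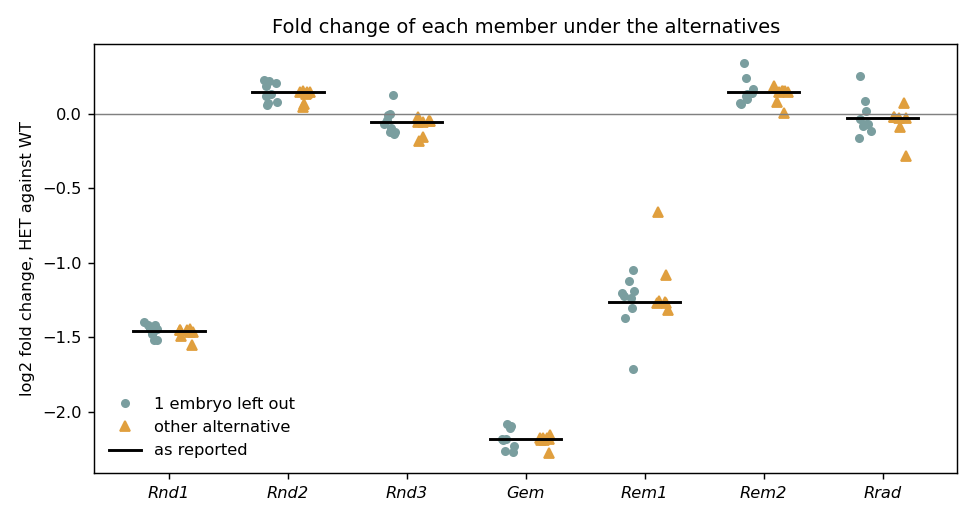
Log2 fold change of HET against WT for each member as reported (black line), with each of 9 embryos left out (circles) and under the other alternatives (triangles). The values of *Rnd1* stay between -1.55 and -1.39 and those of *Gem* between -2.28 and -2.08, while those of *Rnd2*, *Rnd3*, *Rem2* and *Rrad* stay within 0.34 of 0. Those of *Rem1*, which has few reads, lie between -1.71 and -0.66 and never pass the threshold.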

How the data were processed

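TruSeq libraries were made by the authors from polyadenylated RNA. A single read of each pair was aligned to GRCm38.p6 with STAR 2.7.9a, and reads per gene were counted with featureCounts on GENCODE M25. The deposited values are counts, not normalized, for 55401 genes in 9 embryos, and their strand setting is not given in the sources used here. No 2 columns were identical.

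HET was compared with WT with the quasi-likelihood test of edgeR 4.0.16 (R 4.3.3) after filterByExpr (minimum count 10) and TMM scaling, with Benjamini-Hochberg adjustment over 17818 genes and a threshold of 0.05. For correlations, log2 CPM used a prior count of 2. Fold changes are HET against WT. The scripts were tested on simulated counts. Alternatives were DESeq2 1.42.0, limma-voom 3.58.1, other scalings and filters, a choroid plexus covariate, embryos with *Ttr* under 100 CPM, and each embryo left out.

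The members, lists and tests were chosen with earlier results of these data known. Partner genes were named where they passed the threshold, otherwise those with the lowest p and the highest level, with the 5 genes most like *Rnd1* and *Gem*. Other genes named in the text were chosen after their values were seen. Coordinates, exon lengths and coding sequences came from GENCODE M21 on GRCm38, aligned with mafft 7.526. Whether PCR duplicates were removed is not given in the sources used here. Some results on individual genes are not reported here.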

Additional observations from a re-analysis of the deposited data

Results flagged for a closer look

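Within a genotype, samples were compared for the 7 members and 12 lists of cell type markers, 38 groups in all, of which chance would mark about 1.9. No embryo was marked for any member. WT embryo 5 still stood above the other WT embryos for *Rem2*, at 17.6 CPM against 8.76 to 11.4 CPM, and for *Rnd3*, at 182 CPM against 97.8 to 129 CPM. In HET, embryo 24 was far above the others in the summed level of choroid plexus genes, at 540.1 CPM, and embryo 5 stood above the others in that of mural cell genes, at 133.7 CPM against 127.5 to 127.8 CPM. *Rnd1* was at 4.64 CPM and *Gem* at 1.54 CPM in HET embryo 24, the lowest of the HET embryos for *Gem*, and their log2 fold changes without it were -1.46 and -2.08.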

How the results depend on the processing

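Under all 17 alternatives, 2 members (*Rnd1* and *Gem*) were called lower in HET and 0 higher, with log2 fold changes of -1.55 to -1.39 and -2.28 to -2.08. Over all genes, DESeq2 called 62 lower and 24 higher in place of 20 and 5, and it called 1 gene of the partner and comparison lists, *Nr4a3*, in place of 0. With the choroid plexus covariate 2 genes were higher, and among embryos with low *Ttr* 12 were lower and 3 higher. Leaving out each embryo gave 13 to 20 lower and 0 to 5 higher genes. *Rnd3* (-0.14 to 0.13) and *Rrad* (-0.16 to 0.25) crossed 0 among these fits. With limma-voom the log2 fold change of *Rrad* was 0.068. The cause was not tested. Of the 5 genes most like each gene, Spearman's rank correlation kept 0 for *Rnd1* and 1 for *Gem*, and centring within genotype kept 0 and 0. The order by length kept all 7 places with the longest transcript. *Rem1* and *Rrad* fell under the stricter filter and have no value there. *Rem1*, with 4 to 24 reads, and *Rrad*, with 15 to 42, are limited by depth. No paired analysis was possible because the labels give no litter, and a shared embryo number does not mark a pair.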
